A study of Homo sapiens with 9 samples.

Results

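CD109, CCN2, BAMBI, BMP4 and CRIM1 are 5 genes whose products regulate signalling by transforming growth factor beta (TGF-beta) or bone morphogenetic proteins (BMPs). They were found by gene symbol among the 14884 genes with a symbol on a whole-transcript array, where they have 7 features in all, since CD109 and CCN2 have a second feature each. The brighter feature stood for each gene. The 5 were chosen by their differences in log2 signal between the 3 groups of this study, so their values are a description, and no test is given for them.

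The cells were BT-549, a human triple-negative breast cancer line, a name for tumours without the estrogen and progesterone receptors and without extra HER2. One group of 3 samples received a synthetic mimic of the mature microRNA miR-150-5p at 50 nM, another 3 received a non-specific negative control small RNA at 50 nM, and the last 3 were mock transfected with the lipid reagent and no RNA. All 9 samples were given the same lipid reagent (Lipofectamine RNAiMAX), the medium was replaced after 24 h, and total RNA was taken at 72 h. The work is on 1 cell line, and no label states that replicates came from different cultures: all p-values then rest on a spread that may be purely technical. VIM, a mesenchymal filament protein that this line is known to express, read 8.47 to 9.38 on the log2 scale, and FN1, fibronectin, 8.16 to 9.48. The estrogen receptor gene ESR1 read 1.96 to 2.37, the progesterone receptor gene PGR 1.77 to 1.85, the epithelial markers EPCAM and KRT5 at most 2.01 and 2.18, and PECAM1, of endothelium, at most 2.80. Array medians were 2.43 to 2.48, and pairs of arrays had Pearson's r of 0.981 to 0.989 within groups and 0.977 to 0.986 between groups across features, which are not independent replicates. Averaged over 23 genes of small nucleolar or Cajal body RNA, the signal was 6.43, 5.95 and 6.75 on mimic arrays 1 to 3, 5.91, 6.83 and 5.87 on negative control arrays and 5.62, 6.78 and 5.64 on mock arrays, so that negative control 2 and mock 2 stood above the other arrays of their groups.

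As background, TGF-beta and BMP ligands bind paired receptor kinases at the cell surface, which pass the signal to SMAD proteins that enter the nucleus and change transcription. SMAD2 and SMAD3 serve the TGF-beta and activin branch, and SMAD1, SMAD5 and SMAD9 the BMP branch. The signal is tuned outside the cell by binding proteins, at the membrane by co-receptors and decoys, and inside by inhibitory SMADs and ubiquitin ligases. In breast cancer cells TGF-beta is known for driving the change from epithelial to mesenchymal form. The 5 genes stand at different steps: BMP4 is a ligand, CRIM1 a membrane protein that binds BMPs, CD109 a TGF-beta co-receptor that dampens the signal, BAMBI a decoy receptor without a kinase, and CCN2 a secreted matrix protein that TGF-beta induces.

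Promoters of 4 of the 5 genes were in a RefSeq promoter table of the GRCh38.p14 build, each running from 250 bases before to 50 bases after a transcript start. Those of CCN2, BAMBI and CD109 are shown because they hold different sets of letters known to bind the factors at the end of these pathways. Capitals mark CAGAC, a SMAD3 and SMAD4 motif, GGCGCC, a GC-rich SMAD motif, and GGAATG, the motif of the TEAD factors through which YAP acts on CCN2. Both strands were searched. CCN2 lies at chr6:131951323-131951622 on the minus strand, BAMBI at chr10:28677271-28677570 and CD109 at chr6:73695953-73696252, both on the plus strand.
CCN2: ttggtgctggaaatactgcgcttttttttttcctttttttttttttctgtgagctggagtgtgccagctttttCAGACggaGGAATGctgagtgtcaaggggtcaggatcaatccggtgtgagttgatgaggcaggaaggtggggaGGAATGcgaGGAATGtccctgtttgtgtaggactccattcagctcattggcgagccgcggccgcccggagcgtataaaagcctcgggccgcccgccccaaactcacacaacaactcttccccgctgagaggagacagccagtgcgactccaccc
BAMBI: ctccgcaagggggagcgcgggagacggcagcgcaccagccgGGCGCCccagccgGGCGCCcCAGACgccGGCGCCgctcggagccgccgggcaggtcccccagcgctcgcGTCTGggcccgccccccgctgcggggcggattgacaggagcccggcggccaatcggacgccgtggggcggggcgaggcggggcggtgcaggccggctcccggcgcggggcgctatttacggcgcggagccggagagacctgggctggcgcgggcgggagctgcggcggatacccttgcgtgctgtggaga
CD109: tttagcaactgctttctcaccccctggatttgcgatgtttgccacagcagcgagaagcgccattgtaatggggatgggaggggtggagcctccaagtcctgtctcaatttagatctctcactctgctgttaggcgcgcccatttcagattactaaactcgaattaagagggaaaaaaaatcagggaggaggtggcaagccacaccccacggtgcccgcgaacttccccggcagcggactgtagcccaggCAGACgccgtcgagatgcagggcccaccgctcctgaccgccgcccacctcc
The CCN2 window held 3 matches to GGAATG, beginning 169, 104 and 95 bases before the start, and 1 match to CAGAC that begins 177 bases before it. The BAMBI window held 3 matches to GGCGCC and 2 to CAGAC, and the CD109 window a single CAGAC, across the start itself. BMP4 has 3 listed starts at chr14:53955001-53955300, chr14:53954439-53954738 and chr14:53953346-53953645, all on the minus strand, with 1 CAGAC each, 2 GGCGCC in the first and 1 GGAATG in the window listed last. Of 35114 promoters of the same length, 45.3% held CAGAC, 19.2% GGCGCC and 14% GGAATG, while 0.871% held 3 or more GGCGCC and 0.128% held 3 or more GGAATG. A match is only a run of letters in this window, and the arrays did not measure binding.

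BMP4, the ligand, was low in the mimic arrays and had similar levels in both controls. Its log2 signal was 5.57, 5.78 and 5.23 on mimic arrays 1 to 3, 6.44, 6.81 and 6.84 on negative control arrays, and 6.36, 6.36 and 6.56 on mock arrays. Every mimic array lay below all 6 control arrays, while negative control and mock arrays overlapped. The means were 5.53 ± 0.28 in the mimic, 6.70 ± 0.22 in the negative control and 6.43 ± 0.11 in mock (SD, n = 3 each). The mimic minus negative control difference was -1.17 ± 0.15 (SE), or 44.4% of the negative control signal. Mimic minus mock was -0.90 ± 0.15, 53.6% of the mock signal, and negative control minus mock was 0.27 ± 0.15. The order of group means was thus negative control, mock and mimic, of which the upper pair did not separate beyond their spread.

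CRIM1, a transmembrane protein with cysteine-rich repeats that bind BMPs, had its lowest signal in the negative control. It read 8.24, 8.38 and 8.09 on mimic arrays, 6.99, 6.54 and 6.57 on negative control arrays, and 7.90, 7.61 and 7.85 on mock arrays. No group overlapped another, although the gap between the lowest mimic and the highest mock array was 0.19. Group means were 8.23 ± 0.14 in the mimic, 6.70 ± 0.25 in the negative control and 7.79 ± 0.16 in mock (SD, n = 3 each). The mimic stood 1.53 ± 0.14 (SE) above the negative control, a 2.89-fold higher signal. Against mock the mimic stood only 0.45 ± 0.14 higher, whereas the negative control was at -1.08 ± 0.14, 2.12-fold lower than mock. Most of the distance between mimic and negative control therefore lay between the negative control and mock, 2 groups that did not receive the miR-150-5p mimic.

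CD109, a glycoprotein held in the membrane by a lipid anchor, which binds TGF-beta and promotes the turnover of its receptors, stepped down over the 3 groups. It read 6.09, 6.05 and 5.82 on mimic arrays, 7.59, 7.54 and 7.74 on negative control arrays, and 8.26, 7.99 and 8.15 on mock arrays. The groups did not overlap, with gaps of 1.44 between mimic and negative control and 0.25 between negative control and mock. Its means were 5.99 ± 0.15, 7.62 ± 0.10 and 8.14 ± 0.14 (SD, n = 3 each) in the mimic, the negative control and mock. The mimic signal was 32.2% of the negative control signal and 22.5% of the mock signal, and the negative control signal was 70.0% of mock, a log2 difference of -0.51 ± 0.11 (SE).

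The second CD109 feature did not show these steps. It read 3.16, 3.25 and 3.43 on mimic arrays, 3.43, 3.68 and 3.43 on negative control arrays and 3.31, 3.68 and 3.57 on mock arrays. Its differences were -0.23 ± 0.12 for mimic minus negative control, -0.24 ± 0.12 for mimic minus mock and -0.01 ± 0.12 for negative control minus mock (SE, n = 3 per group), and the groups overlapped or touched in all of these pairs. This feature was dim, at percentile 49.6, 52.8 and 52.7 of all genes in the mimic, the negative control and mock. The main feature stood at 83.8, 96.3 and 98.0. The platform annotation pairs the 2 features with different RefSeq transcripts of CD109. Which transcripts these cells make was not tested, nor was the part of the low signal.

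BAMBI, a membrane protein that resembles the type I receptors but has no kinase domain, had the smallest spread of the 5 genes over the 9 arrays. It read 5.27, 5.17 and 5.44 on mimic arrays, 5.54, 5.84 and 5.87 on negative control arrays, and 5.73, 5.93 and 5.95 on mock arrays. The mimic arrays lay below the 6 others by a gap of 0.10 to the nearest negative control array, and negative control and mock overlapped. Means were 5.29 ± 0.13 in the mimic, 5.75 ± 0.18 in the negative control and 5.87 ± 0.12 in mock (SD, n = 3 each). Mimic minus negative control was -0.46 ± 0.12, mimic minus mock -0.58 ± 0.12 and negative control minus mock -0.12 ± 0.12 (SE). In linear terms the mimic signal was 72.9% of the negative control signal and 66.9% of the mock signal.

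CCN2, also known as connective tissue growth factor, was low in both groups that received a small RNA. It read 8.38, 8.48 and 8.39 on mimic arrays, 8.15, 8.23 and 8.37 on negative control arrays, and 9.06, 9.04 and 9.42 on mock arrays. All 6 arrays with a small RNA lay below the 3 mock arrays, and the mimic and negative control arrays were parted by only 0.01. The means were 8.42 ± 0.06 in the mimic, 8.25 ± 0.11 in the negative control and 9.17 ± 0.21 in mock (SD, n = 3 each). Negative control minus mock was -0.92 ± 0.11 (SE) and mimic minus mock was -0.76 ± 0.11, whereas mimic minus negative control was 0.16 ± 0.11. Its second feature kept that order with larger steps, reading 3.82, 3.82 and 3.89 on mimic arrays, 3.33, 3.44 and 3.83 on negative control arrays, and 5.47, 5.78 and 4.63 on mock arrays. Both CCN2 features are annotated with the same transcript. On the second, negative control minus mock was -1.76 ± 0.25, mimic minus mock -1.45 ± 0.25, and mimic minus negative control 0.31 ± 0.25, with mimic and negative control overlapping.

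**Figure D1:**
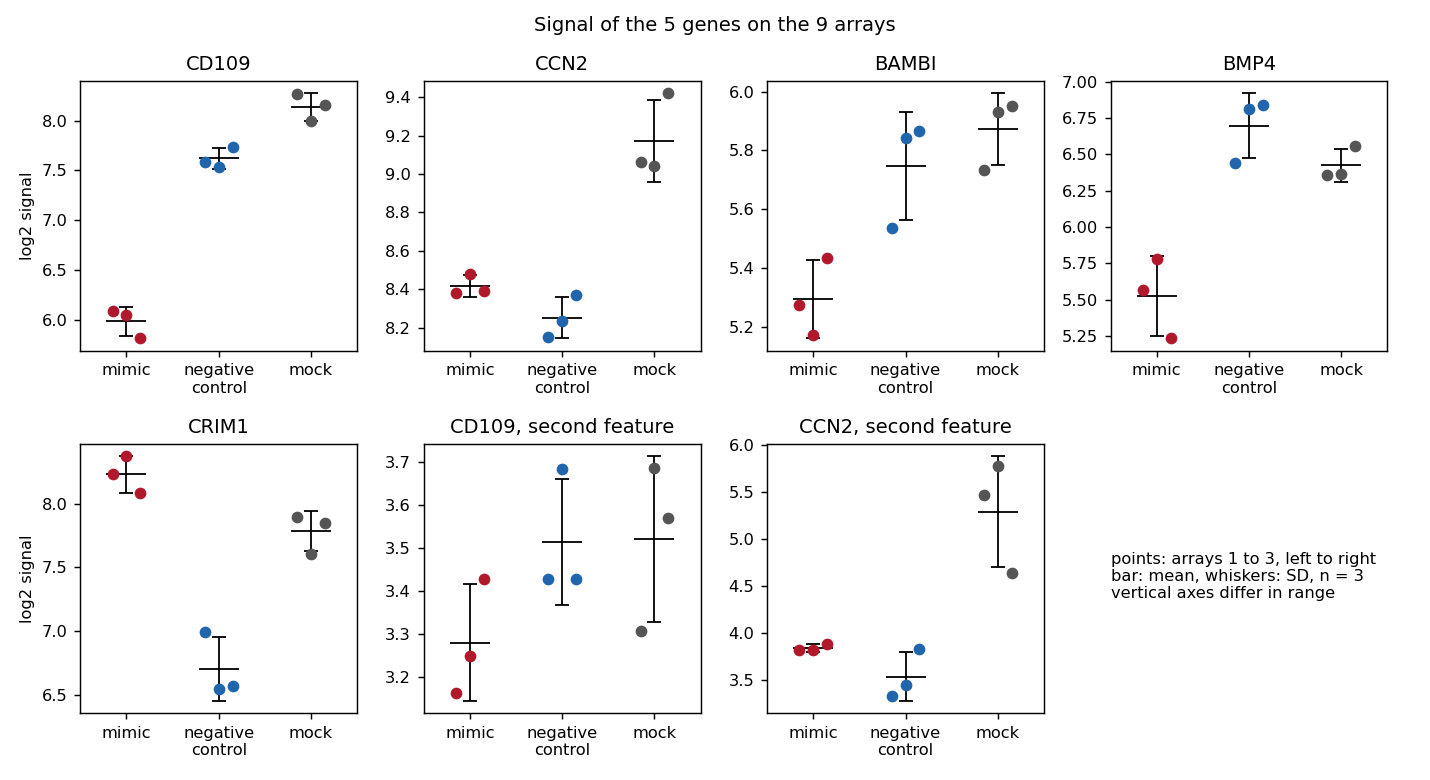
Log2 signal (vertical axis, own range in each panel) of the 5 genes and of the second features of CD109 and CCN2 on the mimic, negative control and mock arrays, with points for single arrays and horizontal lines and whiskers for mean and SD (n = 3). The mimic arrays are lowest for CD109, BAMBI and BMP4, the mock arrays highest for CCN2, and the negative control arrays lowest for CRIM1, at 6.54 to 6.99.

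The 5 genes thus fell into different orders. The mimic had the lowest mean for CD109, BAMBI and BMP4, the negative control had the lowest mean for CRIM1 and CCN2, and mock had the highest mean for CD109, CCN2 and BAMBI. Mimic and negative control arrays did not overlap for 5 of 5 genes, against 18.6% of all genes tested, and mimic and mock arrays for 5 of 5, against 20.2%. Negative control and mock arrays did not overlap for 3 of 5 (CD109, CCN2 and CRIM1), against 12% of all genes. Since the 5 genes were chosen on these comparisons, which also share arrays with each other, the counts are given without a reading. Negative control 2 and mock 2, which read high in small nucleolar RNA within their groups, were left out together. The mimic minus negative control differences were then -1.68 for CD109, 0.16 for CCN2, -0.41 for BAMBI, -1.11 for BMP4 and 1.45 for CRIM1. Negative control minus mock was then -0.55 for CD109, -0.98 for CCN2, -0.14 for BAMBI, 0.18 for BMP4 and -1.09 for CRIM1. Each difference kept its sign, though in negative control minus mock BAMBI and BMP4 lay within their SE (0.15 and 0.20). The mimic arrays, at 5.95 to 6.75 in small nucleolar RNA, then all lay above the remaining control arrays, at 5.62 to 5.91. Leaving out that pair therefore does not separate small nucleolar RNA signal from the mimic.

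**Figure D2:**
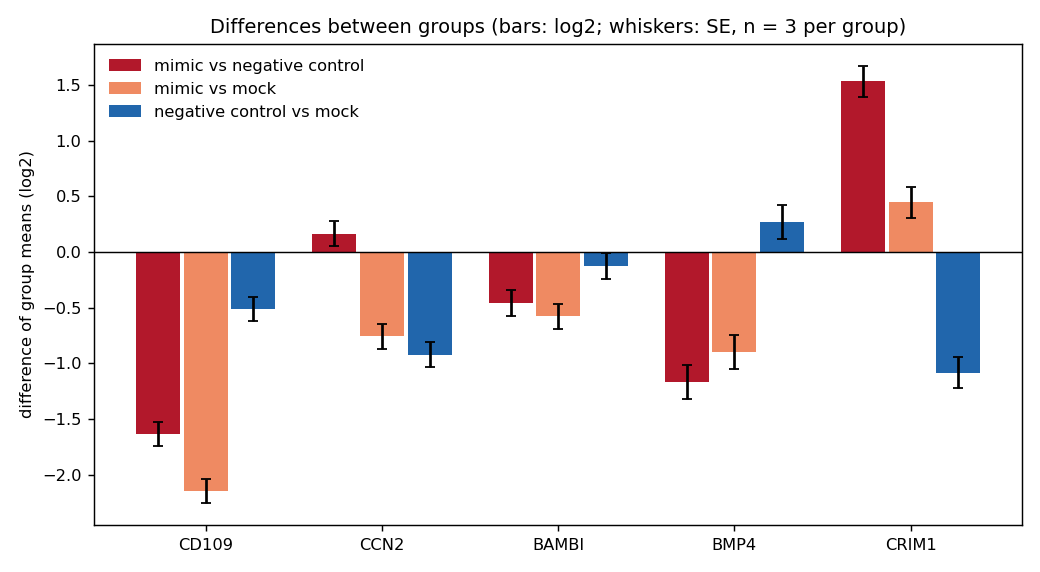
Differences between group means on the log2 scale (vertical axis) for each of the 5 genes in 3 comparisons, with the SE of the fit as whiskers (n = 3 arrays per group). CRIM1 is at 1.53 in mimic against negative control and at -1.08 in negative control against mock, and CCN2 is below 0 in both comparisons with mock.

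The genes whose profiles over the 9 arrays lay nearest to each of the 5 were found by the root mean square difference of log2 signals, each gene centred on its own mean, among all 14884 genes. For BMP4 the nearest was THBS1 (0.171), thrombospondin 1, which activates latent TGF-beta, before SDC4 (0.177), a heparan sulfate proteoglycan of the membrane, and TFAP2C (0.188), a transcription factor. THBS1 averaged 6.89 in the mimic, 8.12 in the negative control and 7.89 in mock. For CRIM1 the nearest were THOC5 (0.244), SMURF2 (0.256), a ubiquitin ligase that marks SMADs and TGF-beta receptors for breakdown, and VLDLR (0.256). THOC5 averaged 7.28 in the mimic, 6.14 in the negative control and 6.85 in mock. SMURF2 averaged 8.92, 7.96 and 8.64, and both had the order of CRIM1. For CD109 they were IGFBP5 (0.219), FBXO32 (0.237) and SNAI2 (0.240), a repressor of epithelial genes that TGF-beta can induce. For CCN2 they were RND3 (0.144), a small GTPase that opposes stress fibres, VGLL3 (0.158), a TEAD cofactor, and SPDYE3 (0.158). SPDYE3 averaged 1.70 in the mimic, 1.61 in the negative control and 2.34 in mock, below the array medians. For BAMBI they were CTSLP2 (0.115), CYB5R3 (0.122) and ITM2B (0.123). For scale, the root mean square spread of the 5 genes themselves was 0.922 for CD109, 0.418 for CCN2, 0.277 for BAMBI, 0.530 for BMP4 and 0.662 for CRIM1. All genes were measured on the same 9 arrays, and a low value is easier to reach for a gene of small spread.

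**Figure D3:**
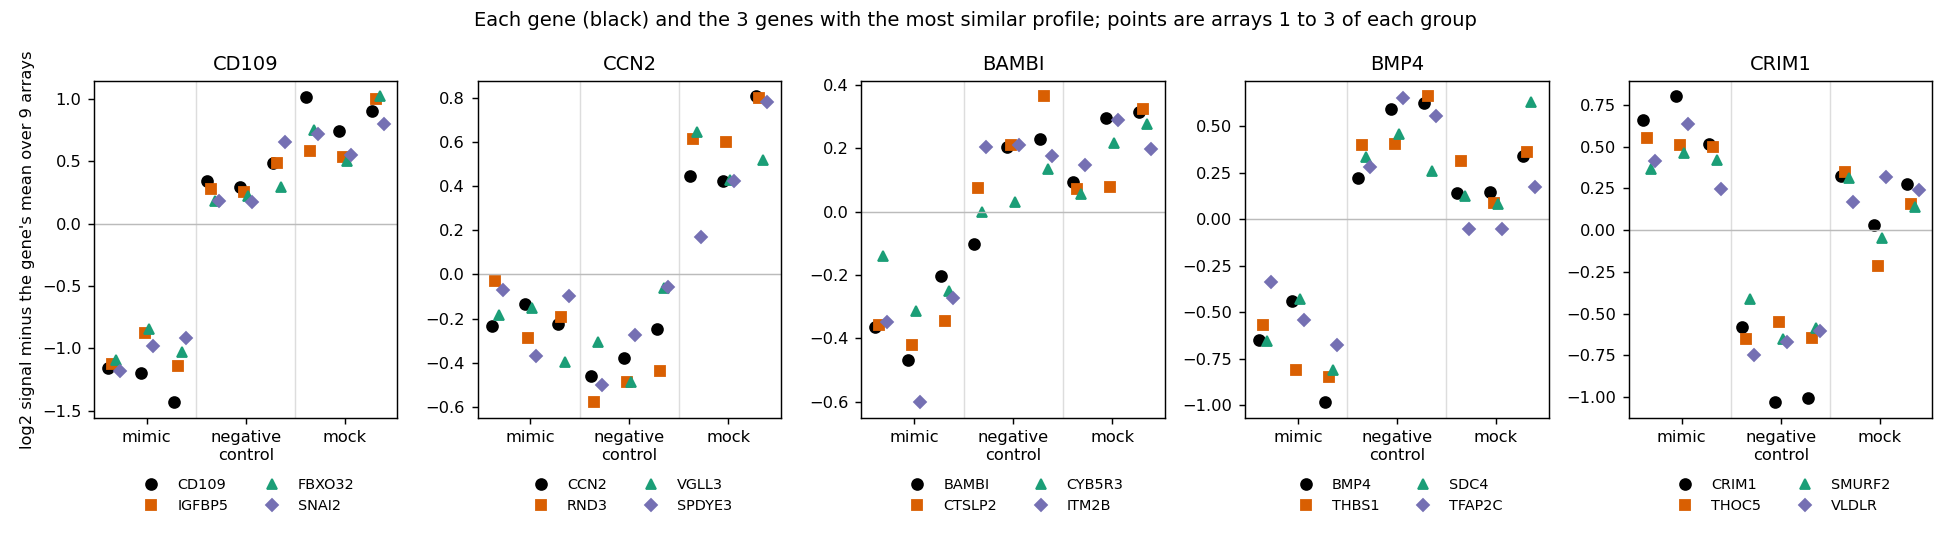
Log2 signal minus each gene's own mean over the 9 arrays (vertical axis, own range in each panel) for each of the 5 genes in black and for the 3 genes with the lowest root mean square difference to it. In the BMP4 panel THBS1, SDC4 and TFAP2C are low on the mimic arrays, and in the CRIM1 panel THOC5, SMURF2 and VLDLR are low on the negative control arrays.

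Beside the 5 genes, 158 other genes were placed in 10 lists of TGF-beta and BMP ligands, binding proteins, receptors, SMADs, regulators and targets, and 99 of them were measured. The others, among them TGFB1 to TGFB3, TGFBR1, TGFBR2, BMPR1A, BMPR2 and ID1, were not analysed here. Of the 99, 52 had a mean signal at or above the median of all genes. They were tested with limma, with adjustment by Benjamini and Hochberg over all 14884 genes, and a gene passed at an adjusted p under 0.05. In mimic against negative control 1 rose and 3 fell, 4.04% of the 99 against 3.18% of all genes (1.76% higher and 1.42% lower), and the median difference was -0.03 against 0.00 for all genes. In mimic against mock 1 rose and 7 fell, 8.08% against 3.9% of all genes (2.28% higher and 1.62% lower), with a median of -0.03 against 0.00. In negative control against mock 1 rose and 3 fell, 4.04% against 0.645% of all genes (0.168% higher and 0.477% lower), with a median of -0.04 against 0.01. The count in mimic against mock was 5 when mimic 1 was left out, and the count in negative control against mock was 2 when any 1 negative control array was left out, 1 when mock 1 or mock 3 was, and 1 when negative control 2 and mock 2 were left out together. At an unadjusted p under 0.05 there were 17, 21 and 24 of the 99 in these comparisons in the same order, where 16%, 17.5% and 11% of all genes were under it. In both comparisons of the mimic the shares of all genes by direction depended on the normalization. Quantile-normalized once more, mimic against negative control had 176 genes rising and 289 falling, and 2 and 4 among the 99. Mimic against mock then had 231 rising and 287 falling, and 1 and 7 among the 99. No set test was run, so the shares are set side by side only.

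Among ligands and their activation, THBS1 fell in the mimic. It read 7.07, 6.83 and 6.79 on mimic arrays, 8.03, 8.04 and 8.30 on negative control arrays and 7.95, 7.72 and 7.996 on mock arrays, with the mimic arrays below all others. The limma difference was -1.23 ± 0.12 from the negative control (adjusted p = 0.0011) and -0.995 ± 0.12 from mock (adjusted p = 0.0027), against 0.23 ± 0.12 for negative control minus mock (adjusted p = 0.51). It was the only 1 of 8 measured genes of TGF-beta ligands, latency and activation to pass in any comparison. BMP2, the closest relative of BMP4 among the ligands, fell against the negative control (-0.67 ± 0.12, adjusted p = 0.016). Leaving out mimic 2 or 3, or negative control 1 or 3, raised that value to as much as 0.068. It read 3.66, 3.62 and 3.48 on mimic arrays, 4.27, 4.05 and 4.44 on negative control arrays and 3.87, 4.14 and 4.04 on mock arrays, and mimic minus mock was -0.43 ± 0.12 (adjusted p = 0.074). The other 13 BMP ligands did not pass in any of the 3 comparisons, nor did the 10 activin, nodal and GDF ligands. GDF15, a stress-induced ligand of the GDF list that is named after its values were seen, stood at -1.08 ± 0.29 in negative control minus mock (adjusted p = 0.16) and at -0.86 ± 0.29 in mimic minus mock (adjusted p = 0.14).

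Of 18 measured extracellular binders and antagonists, 2 fell in mimic against mock, 1 fell in negative control against mock and none passed in mimic against negative control. At an unadjusted limma p under 0.05 there were 6 of the 18 in mimic against negative control, against 16% of all genes. There were 4 in mimic against mock, against 17.5% of all genes, and 7 in negative control against mock, against 11%. CHRDL1, a chordin-like BMP antagonist, read 8.04, 7.80 and 7.84 on mimic arrays, 8.59, 8.44 and 8.42 on negative control arrays and 8.95, 8.65 and 9.20 on mock arrays. Its group means had the order of CD109. The limma difference of CHRDL1 was -1.04 ± 0.14 for mimic minus mock (adjusted p = 0.0045), and -0.59 ± 0.14 for mimic minus negative control missed the threshold (adjusted p = 0.051). Negative control minus mock, at -0.45 ± 0.14, did not pass either (adjusted p = 0.23). BMPER, which binds BMPs through cysteine-rich repeats like those of CRIM1, fell against mock (-0.41 ± 0.09, adjusted p = 0.039), but missed the threshold, at up to 0.11, when any 1 array other than negative control 2 and mock 1 was left out. With the replicate number as a block BMPER had adjusted p = 0.085. FST, follistatin, which traps activins, was lower in the negative control than in mock (-0.998 ± 0.15, adjusted p = 0.018). Leaving out negative control 1 or 2, or any 1 mock array, raised that value to as much as 0.090. It read 4.03, 4.31 and 3.92 on mimic arrays, 3.18, 3.47 and 3.75 on negative control arrays and 4.39, 4.54 and 4.47 on mock arrays, lowest in the negative control as CRIM1 was. Mimic minus negative control was 0.62 ± 0.15 for FST (adjusted p = 0.059).

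At the membrane, 1 of 12 receptor kinases was measured, ACVRL1, which read near 2.6 in every group and did not pass. None of 4 other co-receptors and modulators passed in any comparison by limma, and 0 had an unadjusted p under 0.05, which says little for so few genes. Among them ENG, endoglin, a TGF-beta co-receptor, was at 0.02 in mimic minus negative control and -0.03 in mimic minus mock. None of the 8 SMAD genes passed either, with 0, 1 and 0 at an unadjusted p under 0.05 in mimic against negative control, mimic against mock and negative control against mock, where 16%, 17.5% and 11% of all genes were under it. SMAD2 averaged 7.18, 7.20 and 7.16 in the mimic, the negative control and mock, and SMAD4, the partner of all signalling SMADs, 7.44, 7.45 and 7.69. SMAD3 averaged 2.25 in the mimic, 2.49 in the negative control and 2.54 in mock (adjusted p = 0.32 and 0.18 for the mimic against them), and mimic minus negative control was -0.24, or -0.14 without mimic 1. For the BMP branch, SMAD1 differed by -0.10 ± 0.11 and SMAD5 by 0.33 ± 0.18 in mimic minus negative control. Those values rested on single arrays, since SMAD1 was at 0.00 without negative control 3 and at -0.18 without mimic 2, and SMAD5 was at 0.09 ± 0.09 without mimic 2. The inhibitory SMAD6 and SMAD7, which TGF-beta and BMP signals themselves induce, differed by -0.34 ± 0.23 and -0.28 ± 0.23 there (adjusted p = 0.54 and 0.63), with SDs of up to 0.49 and 0.47 within groups, so that differences of that size were not resolved. Without negative control 2, SMAD6 was at -0.53 and SMAD7 at -0.54, while SMAD7 was at -0.09 without negative control 1, and neither passed (adjusted p = 0.19 for SMAD6 and 0.080 for SMAD7 without negative control 2 and mock 2 together).

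Inside the cell, SMURF2 differed between the same groups as CRIM1. It read 8.87, 8.97 and 8.93 on mimic arrays, 8.09, 7.86 and 7.92 on negative control arrays and 8.82, 8.46 and 8.65 on mock arrays, with no overlap between any of the groups. It rose in mimic against negative control by 0.97 ± 0.11 (adjusted p = 0.0022) and fell in negative control against mock (-0.69 ± 0.11, adjusted p = 0.022). Leaving out mimic 3, negative control 2 or 3, or mock 1 or 3 raised this last value to as much as 0.094. Mimic minus mock was 0.28 ± 0.11 for SMURF2 (adjusted p = 0.20). WWP1, another ubiquitin ligase of the same family, rose in both groups with a small RNA, by 0.44 ± 0.07 in mimic against mock (adjusted p = 0.014) and by 0.51 ± 0.07 in negative control against mock (adjusted p = 0.018). Leaving out mimic 1 gave adjusted p = 0.063 for mimic against mock, and leaving out negative control 1 or 3, or mock 1 or 3, gave up to 0.085 for negative control against mock. The other 14 of 16 intracellular regulators did not pass in any comparison.

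Of 9 measured TGF-beta target genes other than CCN2, SNAI2 fell in mimic against negative control (-1.36 ± 0.14, adjusted p = 0.0018). SNAI2, TAGLN and TPM1 fell in mimic against mock, 33.3% of the 9 against 3.9% of all genes. SNAI2 fell by the most there (-1.71 ± 0.14, adjusted p = 0.00057). At an unadjusted limma p under 0.05 there were 3 of the 9 in mimic against negative control (16% of all genes). There were 4 in mimic against mock (17.5% of all genes) and 6 in negative control against mock (11%). TAGLN, transgelin, an actin-binding protein, was low in both groups with a small RNA, as CCN2 was. It read 4.19, 4.19 and 3.94 on mimic arrays, 3.83, 4.12 and 3.79 on negative control arrays and 5.37, 5.05 and 5.22 on mock arrays, and fell against mock in the mimic (-1.10 ± 0.12, adjusted p = 0.0022) and in the negative control (-1.30 ± 0.12, adjusted p = 0.0026). TPM1, a tropomyosin, fell in mimic against mock (-1.32 ± 0.20, adjusted p = 0.0081), and was at -0.73 ± 0.20 in mimic minus negative control (adjusted p = 0.088). Of 11 BMP target genes, HEY1, a transcriptional repressor that Notch also induces, fell in mimic against mock (-0.99 ± 0.16, adjusted p = 0.012, and up to 0.053 when mimic 1 or mock 1 was left out), and the other 10 did not pass in any comparison.

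In negative control against mock, where arrays of the same number moved together, the replicate block left FST (adjusted p = 0.041), SMURF2 (0.049) and TAGLN (0.016) past the threshold and WWP1 short of it (0.063), and called 61 of all genes against 96 without it. With the block fitted to the 6 negative control and mock arrays alone, none of the 99 genes nor any other gene passed (24 of the 99 and 1735 of all genes at an unadjusted p under 0.05).

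**Figure D4:**
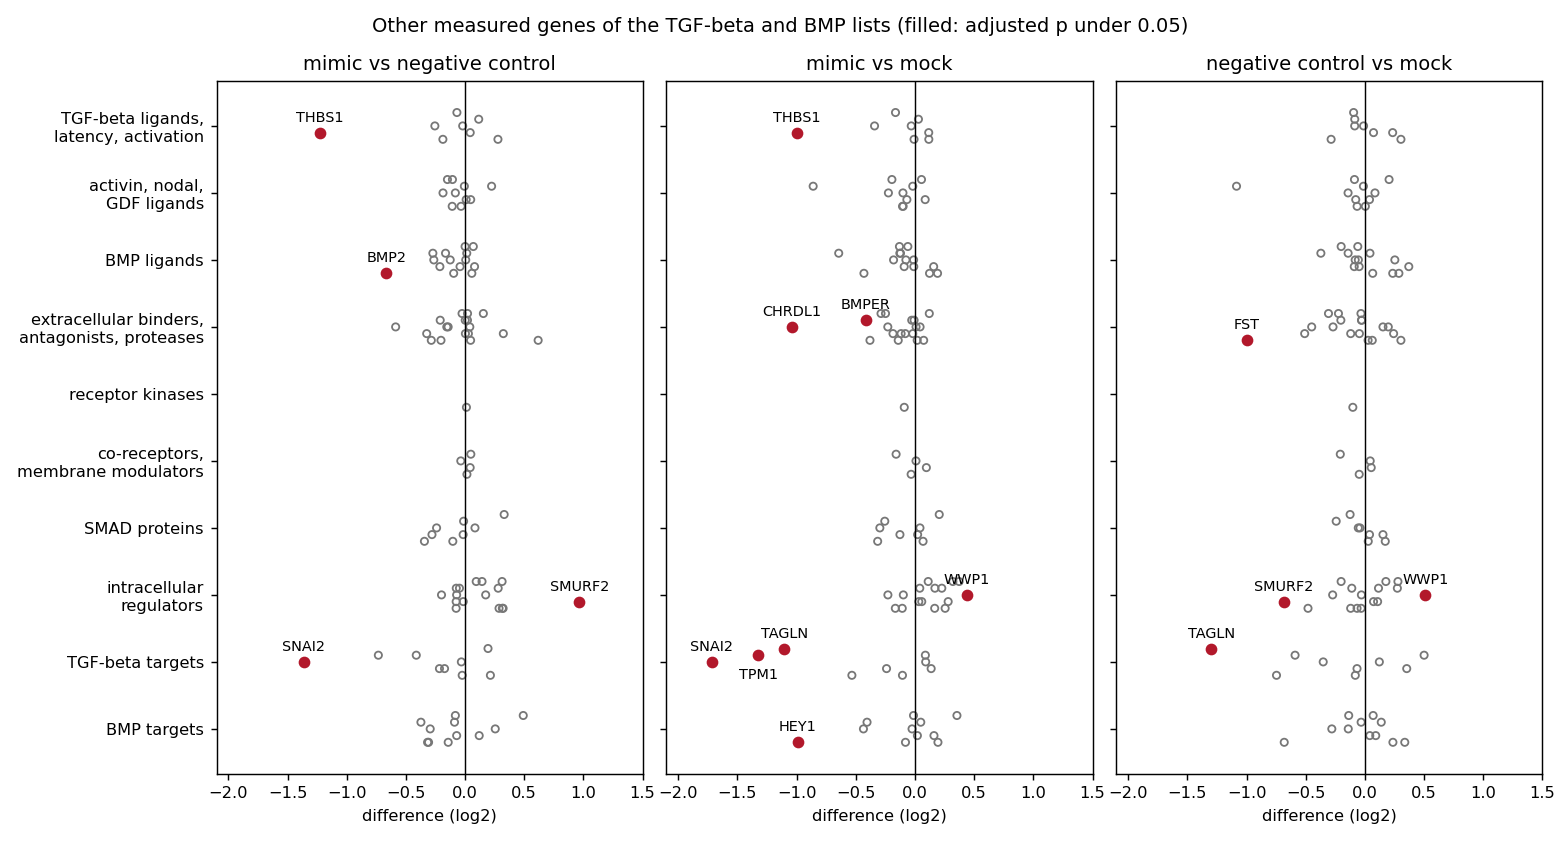
Differences on the log2 scale (horizontal axis) of the 99 other measured genes of the TGF-beta and BMP lists in 3 comparisons, by list (rows), with filled points for an adjusted p under 0.05 in limma (n = 3 arrays per group). Most genes lie near 0, THBS1 and SNAI2 lie to the left in both comparisons of the mimic, and SMURF2 lies to the right in mimic against negative control and to the left in negative control against mock.

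Of the CCN family, 4 of the other 5 genes were measured (CCN3, CCN4, CCN5 and CCN6), and none passed in any comparison, with 0 at an unadjusted p under 0.05. Of 7 measured relatives of CD109 in the alpha-2-macroglobulin and complement family, none passed and 0 had an unadjusted p under 0.05. Of all genes 16% were under it in mimic against negative control, 17.5% in mimic against mock and 11% in negative control against mock. At those shares a count of 0 among 4 or 7 genes says little. A list of YAP and TAZ target genes, which holds both CCN2 and CRIM1, had 10 other measured members. CCDC80, a secreted matrix protein, rose in mimic against negative control (0.58 ± 0.09, adjusted p = 0.0088) and fell in negative control against mock (-0.53 ± 0.09, adjusted p = 0.030). The fall was not called when any 1 array other than mimic 1 and mock 2 was left out (up to 0.15) or with the replicate block (adjusted p = 0.090). It averaged 7.53 in the mimic, 6.95 in the negative control and 7.48 in mock, lowest in the negative control as CRIM1 was. MYOF, myoferlin, fell in mimic against mock (-0.70 ± 0.16, adjusted p = 0.040), but not when any 1 array other than negative control 2 and mock 2 was left out (up to 0.14). The 8 others did not pass, among them ANKRD1, which at 1.84 to 1.94 on average read near the level of PGR.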

How the data were processed

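Total RNA from 9 samples of BT-549 cells was read on Affymetrix Human Gene 2.0 ST arrays. The authors deposited log2 values, which RMA gave, per the submitters' processing notes. RMA corrects the background, brings the arrays to like distributions and sums the probes of a feature. No source used here gives its version. A forced common distribution hides a change shared by most genes. Per the labels, RNA (1 ug) was labelled with the FlashTag biotin kit.

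Features were named with the platform's annotation: 16098 of 53617 had 1 gene symbol. The brightest over all 9 arrays stood for each of 14884 genes, dim ones included. A linear model with 1 mean per group was fitted to all 9 arrays (limma 3.58.1, R 4.3.3), with 6 residual degrees of freedom, and two-sided p-values adjusted by Benjamini and Hochberg over all genes. The pipeline was tested on simulated data. The number of arrays limits the precision.

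The 5 genes and the gene lists, written from general knowledge, were chosen with earlier results of these data known. Named were the 5 genes, core SMADs, receptors and targets, up to 5 genes a list past the threshold in any comparison, by size, and the 3 nearest profiles per gene. Outside this rule ENG, ACVRL1, ANKRD1, GDF15 and the CCN genes were named after their values were seen. Same-numbered negative control and mock arrays deviated together from their group means (r = 0.152, 0.225 and 0.147 across genes). Mimic arrays did not deviate together with control arrays of the same number (r between -0.292 and -0.0544). With control arrays of another number they gave r from -0.177 to 0.24, highest for mimic 1 with negative control 2. Deviations shared between groups were thus not confined to arrays of the same number, and their source was not tested. The pairing of negative control and mock comes from the values, not from the labels. Alternatives were another normalization or centring, signal filters, other features, array weights, other variance models, fewer arrays, the replicate block, a covariate and a stricter threshold. Promoter sequences are from RefSeq, GRCh38.p14.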

Additional observations from a re-analysis of the deposited data

How the results depend on the processing

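The differences of the 5 genes were recomputed 276 times under the alternatives, of which 265 moved by less than the spread between replicates and 0 turned in sign. Many of the 265 could not move. A difference of group means stays the same with only the 6 arrays compared, with the replicate block, or without an array of the third group. Averaging features also leaves BAMBI, BMP4 and CRIM1 unchanged, since each has a single feature. The count of 265 is therefore no measure of stability. The 11 that moved all came from the choice of feature. With the mean of both features, CD109 was at -0.93 (mimic minus negative control), -1.20 (mimic minus mock) and -0.26 (negative control minus mock), and with its dimmer feature at -0.23, -0.24 and -0.0071. CCN2 was at -1.11 (mimic minus mock) and -1.34 (negative control minus mock) with the mean, and at 0.31, -1.45 and -1.76 with its dimmer feature.

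Of the 99 pathway genes, 4 changed in mimic against negative control, 7 with genes below the median signal left out and 8 with the small nucleolar RNA mean as a covariate, and 3 to 5 without single arrays. In mimic against mock 8 changed, 5 at an adjusted p under 0.01, and 5 to 10 without single arrays. In negative control against mock 4 changed, 1 with only the 6 arrays compared, 1 at an adjusted p under 0.01, 1 without negative control 2 and mock 2 together, and 1 to 6 without single arrays. Over all genes, mimic against negative control gave 473 calls (262 rising), 465 (176 rising) when quantile-normalized once more, 251 on 6 arrays, 140 at the stricter threshold and 199 to 431 without single arrays. Mimic against mock gave 580 (339 rising), 518 (231 rising) when quantile-normalized, 904 with array weights, 321 on 6 arrays, 144 at the stricter threshold and 188 to 650 without single arrays. Negative control against mock gave 96 (25 rising), 136 (56 rising) when quantile-normalized, 150 above the median signal, 153 with the covariate, 18 on 6 arrays, 20 at the stricter threshold, 28 without the pair of arrays numbered 2, and 21 to 112 without single arrays. With the replicate block the 3 comparisons gave 292, 346 and 61 calls over all genes and 4, 7 and 3 among the 99. With the block on 6 arrays, chosen after seeing the data like the joint removal of both arrays numbered 2, they gave 0, 5 and 0 by limma (1909, 2324 and 1735 at an unadjusted p under 0.05) and 0, 1 and 0 among the 99 (16, 20 and 24 unadjusted). That fit has few residual degrees of freedom. The cause of the other shifts was not tested. HEY1 in the mimic (2.14) and SMAD3 read below or near the array medians, where signal over background is low and small differences are not resolved.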
